A study of Mus musculus with 47 samples.

Results

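Among 47 single mouse induced pluripotent stem cells (iPSCs), 4 cells, in wells B01, B04, C01 and G04, carried nearly balanced RNA from the 2 parental copies of chromosome 1. In the other 43 cells the Cast copy gave more than its partner on this chromosome. The 4 cells were chosen by their Mus share, the counts assigned to the Mus allele divided by those assigned to either allele, summed over all chromosome 1 genes, with a limit of 40%. The 43 cells are named for a chromosome 1 gain by this RNA measure, and DNA copies were not measured here. Because the allelic counts of chromosome 1 chose the cells, every value of that chromosome is a description of the split.

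The cells are 1 plate of iPSCs reprogrammed from fibroblasts of female F1 embryos, with a Mus musculus musculus mother (the allele headed X129 in the table, here Mus) carrying an X-linked GFP transgene and a castaneus father (Cast). The methods give lentiviral tetO-FUW-OSKM (Oct4, Sox2, Klf4 and c-Myc) and FUW-M2rtTA for reprogramming, and the labels give culture in mouse ESC medium with LIF and ascorbic acid, while for iPSC controls the methods describe picked colonies that were then passaged in the absence of doxycycline and ascorbic acid. Every cell was sorted into a GpC methylase mix before its mRNA was captured by the G&T-seq procedure, and no treatment, age or culture distinguishes the 2 groups. The 4 wells lie in columns 1 and 4 of the 6 plate columns, which hold 15 cells, 11 of them among the 43. By the class given with the table, B01 and C01 were X-Mus O-Cast (only the Mus X chromosome), B04 was X-Cast O-Mus and G04 was X-Mus X-Cast. Of the 43 cells, 22 were X-Mus X-Cast, 7 were X-Mus O-Cast and 14 were X-Cast O-Mus. Since no label gives separate cultures or clones, each group counted as 1 sample, and medians, ranges and folds are given with no test.

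Gain of a whole chromosome is a known change in cultured pluripotent stem cells. Its genes usually produce RNA roughly in step with the number of copies, although single genes can depart from this. In a hybrid between strains, single-nucleotide differences show which copy a transcript came from. A cell with 2 Cast copies and 1 Mus copy would have a Cast level 2.0 times and a total level 1.5 times that of a cell with 1 copy of each, which is 1.0 and 0.58 on the log2 scale.

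The 4 cells had 135430 to 202060 allelic counts and 4132 to 5325 detected genes, within the 71682 to 216451 counts and 2918 to 5799 genes of the 43. Mitochondrial genes took 9.47% of the counts in B01, 18.4% in C01, 22.4% in G04 and 24.9% in B04, against 9.09% to 26.7% in the 43. Their Mus share over the other 18 autosomes was 43.8% to 44.7%, inside the 42.9% to 45.4% of the 43 cells. All 8 pluripotency markers (Nanog, Pou5f1, Sox2, Esrrb, Zfp42, Dppa3, Dppa4 and Tet1) had counts in both groups, with a summed scaled count of 525.8 to 810 in the 4 cells and 252 to 1433 in the 43. Of the 7 fibroblast markers in the table, 4 had counts in the 4 cells, with a sum of 81.8 to 217 against 61.5 to 596 in the 43. Col1a1, Col1a2 and Postn were at 0 in the 4 cells, while Col1a2 and Postn were also at 0 in the 43. Of 6 markers of primed and early lineage cells, 2 had counts in the 4 cells, with sums from 0 in B04 and G04 to 15.3 in B01, against 0 to 15.3 in the 43. The part of these markers in the gene differences given later was not tested.

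The chromosome 1 Mus share was 43.96% in B04, 46.8% in B01, 47.56% in G04 and 47.7% in C01. In the 43 cells it ran from 27.6% to 34.9%, with a median of 30.7%. The gap between B04, just inside the limit, and the highest of the 43 was 9.06 percentage points. These values chose the cells and are given as a description. The 95% Clopper-Pearson interval of B04 was 42.9% to 44.98%. Intervals of this kind cover counting error only, since reads carried no molecular identifiers and a read over several variant positions may count at each.

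The split lay in the Cast allele. Per 100 counts on the other autosomes, Cast counts of chromosome 1 were 2.97 in B01, 3.30 in G04, 3.32 in C01 and 3.62 in B04. The 43 cells had 4.99 to 7.76, with a median of 6.56, so that the groups did not overlap and the ratio of medians was 1.98. Mus counts were 2.62, 2.99, 3.03 and 2.84 in the same order, inside the range of 2.44 to 3.54 in the 43, with a ratio of 0.996. The total of both alleles was 5.59 to 6.45 in the 4 cells and 7.66 to 11.3 in the 43, which again did not overlap, with a ratio of 1.498. Summed over cells, the Cast level was 3.32 (95% Poisson interval 3.27 to 3.37) in the 4 cells and 6.53 (6.504 to 6.55) in the 43, and the Mus level was 2.88 (2.83 to 2.93) and 2.90 (2.88 to 2.91).

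**Figure D1:**
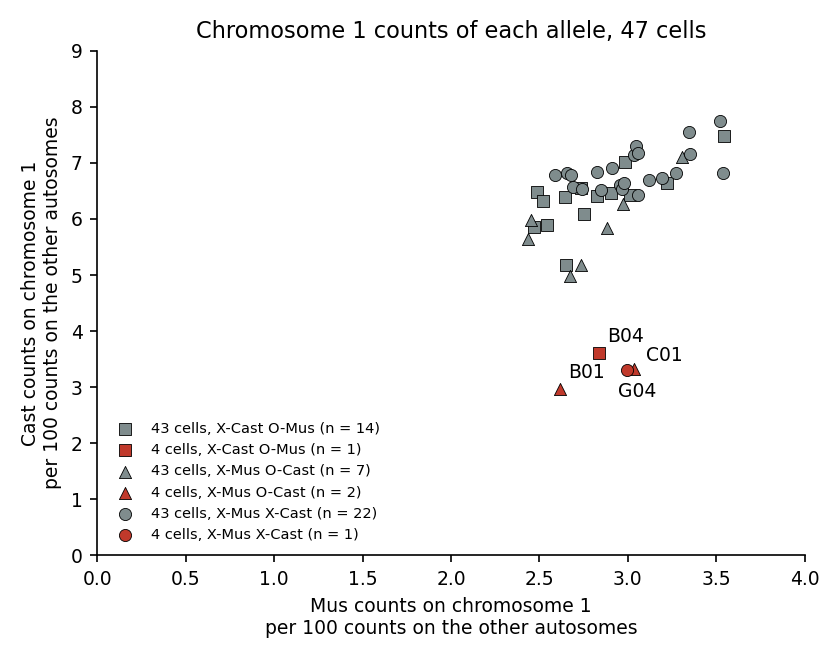
Cast counts (vertical axis) against Mus counts (horizontal axis) on chromosome 1, each per 100 counts on the other autosomes, 1 point per cell, with colour for the group and shape for the X class. The 4 cells lie at 2.97 to 3.62 for Cast, under the 4.99 to 7.76 of the 43 cells, and inside their range for Mus.

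The difference in the Cast level was also present within each X class. The ratio of the 43 cells over the 4 was 1.86 in X-Mus O-Cast cells (7 against 2 cells), 1.77 in X-Cast O-Mus cells (14 against B04) and 2.06 in X-Mus X-Cast cells (22 against G04). Ratios of the total were 1.41, 1.42 and 1.55 in that order. Among the 43, the X-Mus O-Cast cells had a median Cast level of 5.84 and the X-Mus X-Cast cells one of 6.80, so that the class mix of the 43 touches the ratio over all cells.

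The other 18 autosomes differed less as whole chromosomes. Their ratio of the 43 over the 4 was 0.951 to 1.09 for Cast, 0.939 to 1.11 for Mus and 0.940 to 1.05 for the total. On chromosomes 8 and 12 a single cell lay far outside the range of the 43. C01 had a chromosome 8 Mus share of 51.5%, with 1.95 times the median Mus level and 1.15 times the median Cast level of the 43, and 1.46 times their total. B04 had a chromosome 12 Mus share of 7.18%, with 0.113 times the median Mus level, 0.957 times the median Cast level and 0.616 times the total. Smaller departures from the range of the 43 were the Mus shares of B01 on chromosome 4 (43.6% against a highest of 43.4%), chromosome 15 (37.99% against a lowest of 38.4%) and chromosome 16 (42.3% against a lowest of 42.4%) and of B04 on chromosome 13 (54.98% against a highest of 54.5%). The total level also lay just above that range for G04 on chromosome 3 and for B01 on chromosome 19, at 1.14 and 1.199 times the median of the 43.

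**Figure D2:**
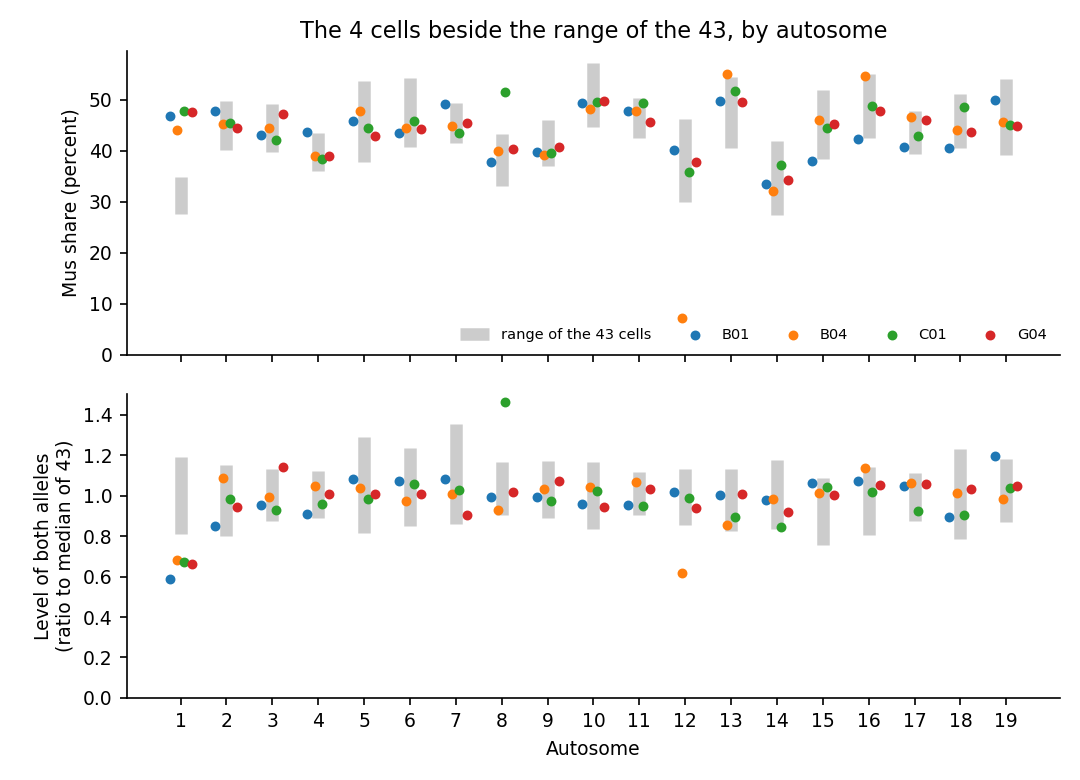
Mus share in percent (top) and level of both alleles as a ratio to the median of the 43 cells (bottom) for each autosome, with 1 point for each of the 4 cells and a grey bar for the range of the 43. On chromosome 1 all 4 points lie outside the bar in both panels, and C01 on chromosome 8 and B04 on chromosome 12 lie far outside it.

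The split ran along the length of chromosome 1. Of 20 windows of 10 Mb, 17 had at least 200 counts in the 4 cells, and all 17 had a higher summed Mus share in the 4 cells. Of the other 3, chr1:20000001-30000000 went the other way, with 153 counts in the 4 cells, a Mus share of 28.8% against 31.7% in the 43 and a Mus ratio of 4.09. The Cast ratio of the 43 over the 4 ranged from 1.57 to 2.57 over the 17 windows, with a median of 2.01. The Mus ratio had a median of 0.992 and ranged more widely, from 0.658 to 1.84, and the median ratio of the total was 1.497. The highest Mus ratio of the 17 was in the window from 110 to 120 Mb (chr1:110000001-120000000), which holds Tfcp2l1, and the lowest in chr1:40000001-50000000. When chromosome 1 was divided into 3 consecutive stretches, the 4 cells had Mus shares of 50.2% to 54.3% in the first (43 cells, 28.8% to 41.1%) and 39.2% to 50.0% in the second (24.2% to 35.8%). In the last stretch they had 40.1% to 45.9% against 19.8% to 40.3%, where B01 at 40.07% lay below the highest of the 43 cells at 40.30%.

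**Figure D3:**
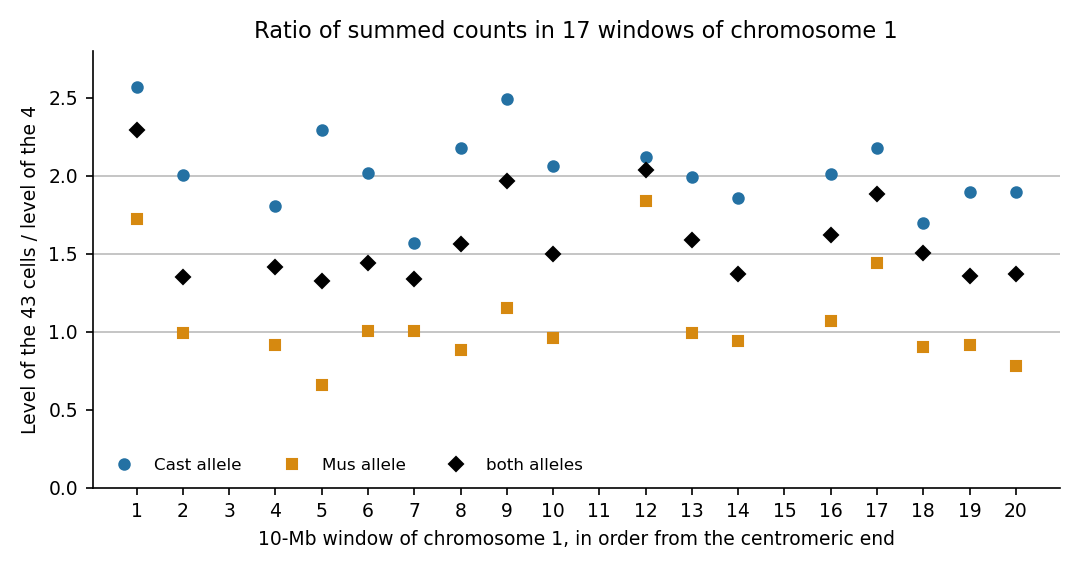
Ratio of the level in the 43 cells to that in the 4 cells for the Cast allele, the Mus allele and both alleles (vertical axis), in 10-Mb windows in order along chromosome 1 (horizontal axis), for windows with at least 200 counts in the 4 cells. Grey lines mark ratios of 1, 1.5 and 2. Cast points lie between 1.57 and 2.57 and Mus points scatter around 1.

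Gene by gene, the Cast allele was higher in the 43 cells for most genes of chromosome 1. Counts were scaled to the total of chromosomes 2 to 19 of each cell, which leaves out chromosome 1 and the X. Each gene was then compared as the log2 of the mean of the 43 cells over the mean of the 4, among genes whose 2 group means averaged at least 5 scaled counts. Of 890 chromosome 1 genes in the table, 773 had a count and 210 passed for Cast. Their median Cast log2 fold was 0.96, and 152 of them (72.4%) had a fold of at least 0.5, the limit used for following the copy number. On the other autosomes 20.6% of 2507 genes had such a fold, with a median of -0.08. Of the 210 genes, 146 had a mean of 5 in each group, 57 passed only through the 43 cells and 7 only through the 4. The median was 0.76 for the 146 genes measured in both.

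Among the 67 chromosome 1 genes whose Cast counts averaged 20 or more, the median was 0.98 with an interquartile range of 0.62 to 1.32. The width of that range, 0.69, was close to the 0.64 of 694 genes on the other autosomes, whose median was -0.04. Of the 67 genes, 44 had a fold from 0.5 to 1.5, 13 one of at least 1.5, 6 one between 0 and 0.5, and 4 one at or below 0. In 41 of the 67 genes (61.2%) all 4 cells lay below the median of the 43, against 5.19% of genes on the other autosomes. For Cast, none of the 67 genes had all 4 cells above the median of the 43, against 9.8% elsewhere.

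For the Mus allele, 133 chromosome 1 genes had a median of 0.01, and 29 (21.8%) had a fold of at least 0.5, against 19.1% of the other autosomes. With a mean of 20, 9 of 38 Mus genes (23.7%) had one against 11.9%, with medians of 0.19 and -0.06. With both alleles added, 279 genes had a median of 0.56, and 149 (53.4%) had a fold of at least 0.5, against 19.8%. A total fold of 0.58 stands near that limit, so the count of the total depends on where the limit lies. In 114 chromosome 1 genes read from both alleles, the median Mus share was 53.5% in the 4 cells and 33.6% in the 43, and 105 genes (92.1%) had a lower share in the 43, against 50.8% of 1689 genes elsewhere. Of the 103 chromosome 1 genes with a total averaging 20 or more, 63.1% had a total fold of at least 0.5, with a median of 0.68. Among the 9 of these read almost only from Cast (a Mus share of at most 10% in the 43 cells), 6 had such a fold, with a median of 0.83. The 1 gene read almost only from Mus, 1700019D03Rik, had a total fold of 0.53.

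**Figure D4:**
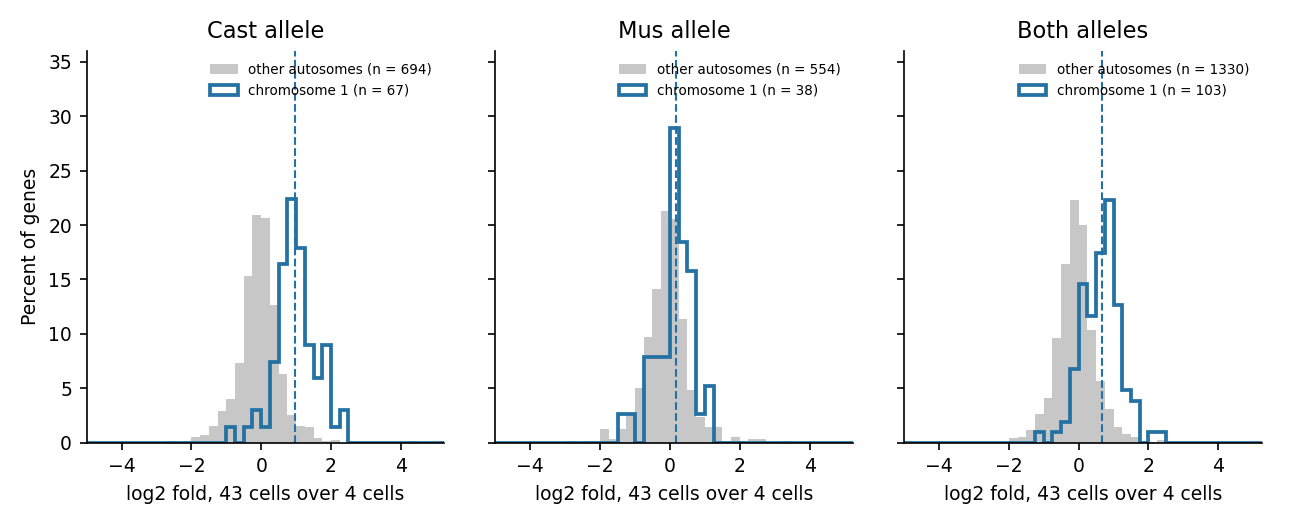
Percent of genes (vertical axis) by log2 fold of the 43 cells over the 4 (horizontal axis, bins of 0.25), over genes averaging 20 or more counts, with chromosome 1 outlined in blue and the other autosomes in grey. Dashed lines mark the chromosome 1 medians, 0.98 for Cast, 0.19 for Mus and 0.68 for both alleles.

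The genes with most counts on chromosome 1 show how the 2 alleles added up, and 9 of the 10 had a Cast fold of at least 0.5, near the 82.5% of all 103 chromosome 1 genes with a total averaging 20 or more. Hspe1 (chr1:55088132-55091307, build mm10), the co-chaperonin of the mitochondrial Hsp60 complex, had 65.2 scaled Cast counts in B01, 92.5 in B04, 100.2 in C01 and 84.5 in G04, against 73.1 to 460 with a median of 163 in the 43. Only 1 of the 43 cells lay below the highest of the 4. Its Mus counts were 111 to 210 in the 4 cells, inside the 70.8 to 436 of the 43. The log2 fold was 1.00 for Cast, 0.08 for Mus and 0.49 for the total. Hspd1, the Hsp60 chaperonin encoded beside it, had a Cast fold of 0.82, a Mus fold of -0.16 and a total fold of 0.51.

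Dtymk (chr1:93792576-93801934), thymidylate kinase, had 61.2, 62.8, 40.1 and 92.4 Cast counts in B01, B04, C01 and G04, against 67.6 to 462 with a median of 150 in the 43. Again the groups nearly separated, with 2 of the 43 cells below the highest of the 4. Its folds were 1.33 for Cast, 0.21 for Mus and 0.84 for the total. Rpl37a (chr1:72711290-72713813), encodes a protein of the large ribosomal subunit. Its Cast counts were 53.01, 48.7, 28.1 and 55.04 in the 4 cells, all below the lowest of the 43 at 63.4, whose median was 103. The total also separated without overlap, at 33.7 to 66.9 against 71.8 to 209, with a total log2 fold of 1.18. On the other autosomes 0.0% of the 615 genes with an average of 20 and a count in every one of the 43, the genes in which this could occur, had all 4 cells below the 43. Rpl37a, Rpl7 and Hspe1 have processed copies elsewhere in the genome, so how their reads were shared among copies is uncertain.

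Rpl7 (chr1:16101295-16104662), another large-subunit protein, did not follow in its total. Its Cast counts were 52.0, 42.1, 36.1 and 48.2 in B01, B04, C01 and G04, against 39.1 to 99.5 with a median of 68.6, a log2 fold of 0.63. Its Mus counts were 151, 183, 139 and 249, against 86.7 to 230 with a median of 160, a fold of -0.19. The Mus allele gave 69.8% of its counts even in the 43 cells, and its total fold was 0.01. The ribosomal proteins on the other autosomes, 51 genes, had a median total fold of -0.03, with 1 gene at or above 1 and 1 at or below -1.

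A larger shift between alleles was seen for Atic (chr1:71557150-71579631), which encodes the enzyme of the last steps of purine synthesis. Its Mus counts were 177 in B01, 145 in B04, 136 in C01 and 26.5 in G04, against 0 to 131 with a median of 41.9 in the 43. Hence 3 of the 4 cells lay above every one of the 43, and G04 lay below their median. The Mus fold was -1.32 and the Cast fold 0.57, which left a total fold of -0.18. Within X-Mus O-Cast cells the Cast fold of Atic was -0.079.

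**Figure D5:**
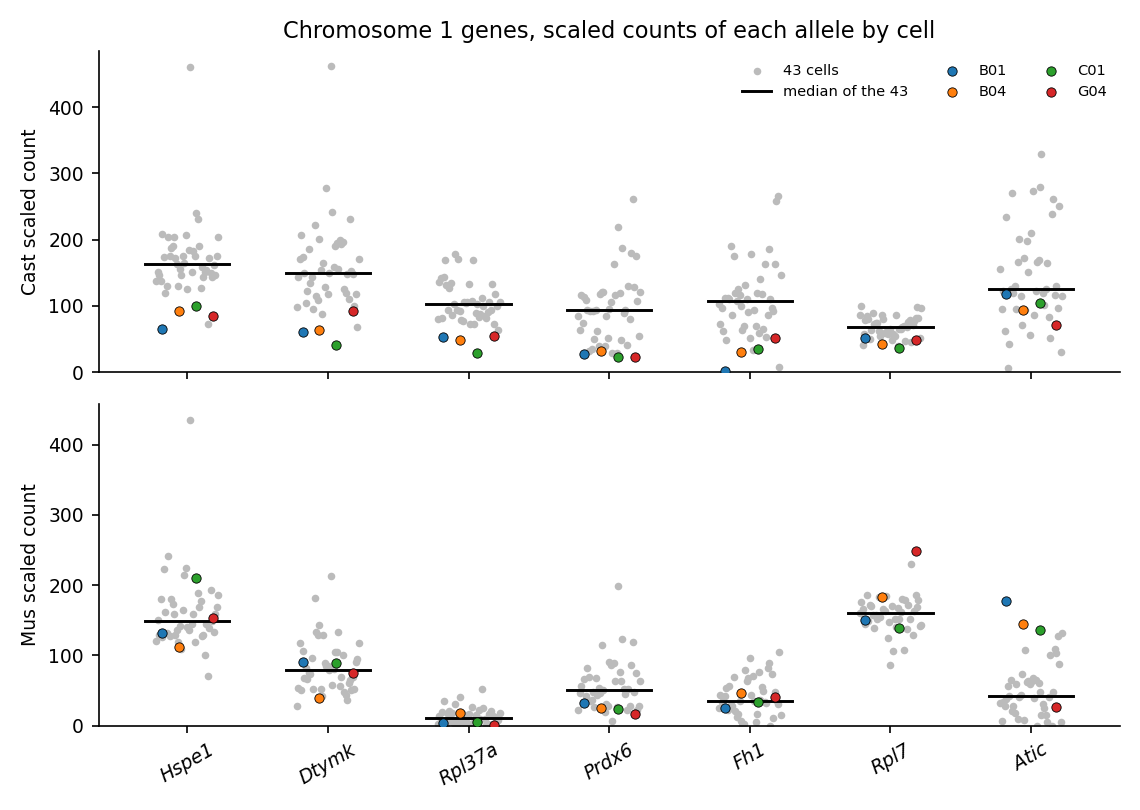
Scaled counts of the Cast allele (top) and the Mus allele (bottom) for 7 chromosome 1 genes (horizontal axis), with grey points for the 43 cells, a black line for their median and coloured points for the 4 cells. For Rpl37a all 4 Cast points lie below the lowest grey point, and for Atic 3 of the 4 Mus points lie above the highest.

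Further high-count genes were more uneven among cells. Gas5, the host RNA of several small nucleolar RNAs, had a total fold of 1.20 with 6.41 counts in C01 and 181 to 208 in the other 3. Imp4, a factor of ribosomal RNA processing, had a Cast fold of 0.59, and it went from 31.6 counts in B01 to 244 in C01. Dbi, the acyl-CoA binding protein, had a Cast fold of 0.99, with 24.9 to 191 counts in the 4 cells against 88.0 to 381 in the 43. Lefty1, a secreted inhibitor of Nodal signalling, had 244 Cast counts in C01, 0 in B04 and up to 1169 in the 43, where 11 cells had none, so its Cast fold of 1.21 rests on few cells. Lefty2, its neighbour with the same role, had a Cast fold of 0.53 and a total fold of 0.05.

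Most genes of the respiratory chain on chromosome 1 were higher in the 43 cells. Ndufb3, an accessory subunit of complex I, had 7.14, 30.6, 12.03 and 48.2 Cast counts in B01, B04, C01 and G04, and the 43 cells 29.5 to 271 with a median of 80.5. Only 3 of the 43 cells lay below the highest of the 4 for Ndufb3, and its folds were 1.78 for Cast and 1.31 for the total. Sdhc, a membrane anchor of complex II read almost only from Cast, had a fold of 0.59. Of 6 members of the nuclear oxidative phosphorylation list on chromosome 1, 5 had a total fold of at least 0.5, with a median of 0.62, beside 63.1% and 0.68 for all chromosome 1 genes that averaged at least 20 counts. On the other autosomes 4 of 30 members had such a fold, with a median of 0.12, beside 19.8% and -0.09 for all genes there that averaged at least 5 counts. Cox5b, of complex IV, was read mostly from Mus and had a total fold of 0.66. Ndufs1 was the exception, with a Cast fold of 0.30 and a total fold of 0.05.

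Over all pathway and marker lists, 18 members on chromosome 1 averaged 20 or more counts, and 16 of them had a Cast fold of at least 0.5 and 13 a total fold of at least 0.5, beside 82.5% and 63.1% of all 103 chromosome 1 genes with such a total. Psmd1, a proteasome regulatory subunit, had a Cast fold of 0.97 and a total fold of 0.58. Prim2, the large primase subunit, had 0 Cast counts in B01, 6.61 in B04, 20.8 in C01 and 1.97 in G04, against a median of 23.3 in the 43, and a Cast fold of 1.94. Cenpf, a mitotic kinetochore protein, had a Cast fold of 0.40, with 7.14 to 60.3 counts in the 4 cells. Phlda3, a p53 target, was at 0 in B01 and G04 and at 27.2 in B04, against 0 to 141 for Cast in the 43. Fn1, the fibronectin gene that also counts as a fibroblast marker, had 80.5, 26.4, 0 and 13.8 Cast counts in B01, B04, C01 and G04 and a median of 53.5 in the 43. In Tfcp2l1, a transcription factor of the naive pluripotency network, G04 had 297 total counts, above the median of 207 in the 43, while B01 had 0, B04 17.3 and C01 32.1. Its total fold was 1.28, from 0.87 to 3.68 (without G04) when single cells were left out and 0.96 weighted to the X classes of the 4, with a class median of 245 in X-Mus X-Cast and 96.8 in X-Mus O-Cast cells of the 43. The imprinted genes Zdbf2 and Gpr1 could not be described at this depth, with a highest total count of 10.8 in any of the 4 cells.

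The 6 highest Cast folds among genes with a mean of 20 belonged to Smyd3, Srp9, Cnot9, Gsta3, Prdx6 and Fh1. Prdx6, a peroxiredoxin that reduces peroxidised phospholipids, had 27.5, 31.4, 22.4 and 22.6 Cast counts in B01, B04, C01 and G04, against 28.1 to 262 with a median of 93.7. Its cells were the most alike of the 6 genes, with 2 of the 43 cells below the highest of the 4. Both of its alleles were higher in the 43, with folds of 1.93 for Cast, 1.24 for Mus and 1.63 for the total. Fh1, fumarate hydratase, had 2.04, 29.7, 35.3 and 51.1 Cast counts against a median of 107, with a Cast fold of 1.90, a Mus fold of 0.18 and a total fold of 1.20. Smyd3, a lysine methyltransferase, had opposite alleles. Its Cast counts were 0, 13.2, 15.2 and 0.98 against a median of 31.6, its Mus counts 95.8, 66.9, 18.4 and 33.4 against a median of 22.8, and its total fold was 0.15. Srp9, of the signal recognition particle, and Gsta3, a glutathione transferase, had a Cast count above 2 in G04 alone among the 4 cells. Cnot9, of the CCR4-NOT deadenylase complex, had a Cast fold of 2.05 and a total fold of 0.94.

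The 6 lowest Cast folds belonged to Nrp2 (-0.91), Usf1 (-0.26), Apoa2 (-0.08), Aim2 (0.00 after rounding), Smyd2 (0.15) and Dusp12 (0.29). These were uneven genes, in which 1 or 2 of the 4 cells held most counts. Nrp2, a receptor for semaphorins, had 66.3 Cast counts in B01, 32.1 in C01, 8.85 in G04 and 0 in B04, against 0 to 61.3 with a median of 11.1, and its fold was 0.068 without B01. Aim2, a sensor of cytosolic DNA, had 44.8 in B01, 37.7 in C01 and 0 in B04 and G04. Apoa2, an apolipoprotein, had 107, 66.9, 11.2 and 16.7 in B01, B04, C01 and G04 and a median of 36.6 in the 43. Its medians in the 43 were 75.1 in X-Cast O-Mus and 15.5 in X-Mus X-Cast cells, and its fold was 0.40 when the 43 were weighted to the X classes of the 4 cells. Usf1, a transcription factor, had 3.06 to 64.9 Cast counts in the 4 cells, and Smyd2, another lysine methyltransferase, 0 to 50.5. Dusp12, a phosphatase, spanned 2.41 to 68.3 in the 4 cells and 2.17 to 98.2 in the 43.

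On the other autosomes 3764 genes averaged 5 or more counts, and 301 of them (8.0%) had a total log2 fold past 1 in 1 direction whichever of the 4 cells was left out. In none of the 3764 did the groups separate without overlap, although the 4 cells could lie below the 43 only in the 670 with a count in every one of the 43. In all, 342 (9.09%) had a total log2 fold of at least 1, higher in the 43 cells, and 511 (13.6%) one of at most -1. The median over all these genes was -0.09. Among genes with a mean of 5 in each group the counts were 141 and 234, and at an average of 1 or more counts the balance turned, to 1537 and 1135. With a mean of at least 20, the counts were 46 of 1330 (3.46%) and 67 (5.04%). Of these, 23 and 17 stayed past 1 without each of the 4 cells in turn, and 21 and 17 also did so when the 43 cells were weighted to the X classes of the 4. The minimum averages both groups, so a gene could pass through the group in which it was high. Of the 23, 8 had a mean of at least 20 in the 4 cells, and of the 17, 5 had one in the 43 cells. Of the 23, 2 were on chromosome 12, which holds 2.86% of the 1330 genes, and of the 17, 5 were on chromosome 8, which holds 6.17%. At the lower minimum of 5, 13.7% of chromosome 8 genes had a fold of at most -1, close to the share of all autosomes here, and 12.2% of chromosome 12 genes had one of at least 1.

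Among the 8 genes with the highest folds of the 23, Pgd, the dehydrogenase of the oxidative pentose phosphate pathway, was closest to separating the groups. It had 21.4 counts in B01, 5.78 in B04, 4.81 in C01 and 19.7 in G04, against 18.3 to 134 with a median of 55.7, and a fold of 2.28. Only 2 of the 43 cells lay below the highest of the 4. Summed over cells it had 54 counts in the 4 (95% Poisson interval 40.6 to 70.5) and 2698 in the 43. Upp1, uridine phosphorylase, had 55.04, 39.6, 71.4 and 161 counts in B01, B04, C01 and G04, against a highest of 999 and a median of 215 in the 43, a fold of 1.83. Trub2, a pseudouridine synthase, had 0 to 17.3 against a median of 28.2, a fold of 2.44. Fxyd6, a regulator of the sodium pump, had 0 to 22.6 against a median of 43.7, a fold of 2.31, and Krt42, a keratin, had counts in B04 alone among the 4 cells.

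The medians of Tuba3b and Dazl also differed among the X classes of the 43 cells. Tuba3b, an alpha tubulin of the testis, had the highest fold of the 23, at 4.67. It had 6.12 counts in B01, 2.95 in G04 and 0 in B04 and C01, against 0 to 257 with a median of 43.6. That is 9 counts over the 4 cells (95% Poisson interval 4.12 to 17.1). The median of Tuba3b in the 43 was 70.4 in X-Mus X-Cast, 3.52 in X-Mus O-Cast and 20.1 in X-Cast O-Mus cells. Tuba3a is a near-identical paralog, so the sharing of reads between the pair is uncertain. Dazl, an RNA-binding protein of germ cells, had 0, 10.7, 0 and 1.97 counts against a median of 4.89 and a highest of 241, with class medians of 40.9, 0 and 3.53 in the same order. Weighting the 43 to the X classes of the 4 changed the fold of Tuba3b from 4.67 to 4.23 and that of Dazl from 3.66 to 2.83. Khdc3, of the maternal complex of the oocyte, had 6.12, 0, 75.4 and 59.0 counts against a median of 132, with folds of 2.13 and, weighted, 2.07.

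The 8 genes with the lowest folds are taken from the 17 with a mean of at least 20 that stayed past 1 without each cell. Most of the 8 were uneven among the 4 cells. Slc37a1, a sugar phosphate transporter, had 103 counts in B01, 3.30 in B04, 32.9 in C01 and 36.4 in G04, against 0 to 37.0 with a median of 1.61, a fold of -2.83. It had no count in 20 of the 43 cells, and its summed counts were 183 (157 to 212) in the 4 cells and 276 in the 43. Calca, which encodes calcitonin and its related peptide, had 33.6, 111, 0 and 52.1 against 0 to 41.3 with a median of 2.90, a fold of -2.68. Acacb, an acetyl-CoA carboxylase of fatty acid metabolism, had 44.8, 93.3, 5.61 and 0, a fold of -2.26. Iqcc at -1.92, Pi4k2a, a phosphatidylinositol kinase, at -1.89, and Atad5, which unloads PCNA from DNA, at -1.80 were alike in this respect. Eri1, an exoribonuclease of histone mRNA, had 32.6, 29.7, 75.4 and 6.88 against a median of 7.38, a fold of -1.76. Atmin, an ATM cofactor, had 11.2, 47.9, 42.5 and 29.5 against a median of 6.65, a fold of -1.66. Eri1 and Atmin are on chromosome 8, and their folds ranged from -2.10 to -1.11 and from -1.95 to -1.42 when each of the 4 cells was left out.

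The pathway lists on the other autosomes are read beside all 3764 genes there, of which 9.09% had a fold of at least 1, 13.6% one of at most -1 and 44.8% one above 0. Glycolysis had the highest median among lists with at least 10 measured members, 0.46 over 17 genes. Hk2, Ldhb, Pdk1 and Pgm1 had a fold of at least 1, no member had one of -1 or below, and 14 of 17 were above 0. In 4 of the 17 genes all 4 cells lay below the median of the 43, beside 4.49% of all 3764 genes. The summed count of its genes overlapped fully, however, with 2011 in B01, 1286 in B04, 2168 in C01 and 1935 in G04 against 946 to 4278 and a median of 2011 in the 43. That sum also differed among the X classes of the 43, with medians of 2338 in X-Mus X-Cast, 1818 in X-Mus O-Cast and 1805 in X-Cast O-Mus cells, and 3 of the 4 cells have a single X. The part of the X class in these folds was not tested beyond the weighting, under which the folds of Hk2, Ldhb, Pdk1 and Pgm1 were 1.28 to 1.76. Without 1 of the 4 cells Hk2 fell to 0.78, Ldhb to 0.83 and Pdk1 to 0.84, while Pgm1 stayed at 1.14 or more. Among the members with most counts, Eno1 had a fold of 0.04, Ldha 0.26, Aldoa 0.46 and Pkm 0.37.

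DNA replication genes had a median of 0.09 over 28 genes, with 4 genes at or above 1, among them Gins1, Cdc6 and Pole, and Rfc3 at or below -1. The 28 genes of G2 and mitosis had 0.11, with Anln at or above 1 and Ttk at or below -1. The 27 proteasome subunits had -0.04 and the 30 nuclear genes of oxidative phosphorylation 0.12, with none past 1 in either direction. The 14 cytosolic chaperones had a median of -0.15, with Dnajb6 at or above 1 and Dnajb1 at or below -1. Amino acid and integrated stress response genes had -0.17 over 16 genes, with Slc7a5 at or below -1, the 10 p53 targets -0.30, with Pmaip1 at or above 1, and the 13 autophagy and lysosome genes -0.36, with Atg12 at or above 1. Of 21 naive pluripotency genes off chromosome 1, Pecam1 was at or above 1 and Tet2 at or below -1, and the median was 0.04. The 11 measured Polycomb genes had a median of 0.03, with Phf19 and Aebp2 at or below -1. The 7 interferon response genes had 0.26, with Ifi27 at or above 1. The 5 imprinted genes had -0.04, with Peg3 and Grb10 at or below -1, and the 4 MAPK feedback genes -0.43, with Egr1 at or below -1. Of the primed and early lineage genes 2 were measured, with a median of -0.87 and Dnmt3b, which had 177 counts in C01 and 0 to 31.4 in the other 3 cells, at -1.22. The 2 measured fibroblast markers had a median of 0.75 with none past 1, and no gene of the 2-cell-like list was in the table.

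Over all lists, 27 of 285 measured members on the other autosomes (9.47%) lay past 1 in either direction, beside 22.7% of all 3764 genes. Without each of the 4 cells in turn 6 of the 27 stayed there, beside 301 of the 853 genes past 1 among all 3764. The 6 were Cdc6, Gins1, Pgm1, Pecam1 and Ifi27 above 1 and Rps3a1, of the small ribosomal subunit, below -1. Ifi27 had no count in the 4 cells, so its fold rests on the 3 counts set for an empty group. Leaving out a cell could therefore not turn it. Cdc6 and Pgm1, with means of 4.44 and 4.43 in the 4 cells, passed the minimum of 5 through the 43. Rps3a1, with a mean of 2.81 in the 43, passed through the 4. Rps3a1 has near-identical copies, so the sharing of its reads is uncertain. For 6 the sign turned without 1 cell. Phf19 had 101 counts in B01 and 0 to 5.90 in the other 3, and its fold of -2.01 became 1.76 without B01. The fold of Grb10 went from -2.81 to 0.16, that of Dnmt3b from -1.22 to 0.82, that of Rfc3 from -1.32 to 0.05 and that of Aebp2 from -1.16 to 0.18 without C01, and that of Egr1 from -1.24 to 0.61 without B04. Peg3 and Dnajb1 kept their sign, at -0.11 and -0.34 without C01. When the 43 cells were weighted to the X classes of the 4, 3 of the 27 no longer lay past 1, with Dnajb6 at 0.79, Pmaip1 at 0.49 and Peg3 at -0.71.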

How the data were processed

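Single-cell RNA was measured in 47 iPSCs of 1 plate. The authors deposited whole-number counts per gene, with 1 column per allele and cell and no normalization. Per the labels, STAR 2.5.3a, SAMtools and the mm10 build were used. The methods of the study describe a genome with masked variant positions, allele assignment with SNPsplit and genes with at least 4 SNPs for Smart-seq2 data, and do not name this plate separately. All 94 columns were matched to wells by name. The X class was taken from the column names. Genes were placed with GENCODE M21, which matched 13945 of 13947 symbols, and RefSeq, which matched 1.

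Counts were scaled to each cell's total over chromosomes 2 to 19 (median 116494). Folds are the log2 of group means, with a group without counts set to 3 counts over the group. Genes were kept at a mean of 5. Those picked by count or fold were named at 20, while list members off chromosome 1 and markers were also named below that. The genes named are the 10 with most counts on chromosome 1, the 6 highest and 6 lowest Cast folds there, list members there, and the 8 highest and 8 lowest total folds on other autosomes that stay past 1 without each of the 4 cells, and a few genes that the rule picks are not reported here. The members and lists were chosen with earlier results of these data known. Each group is 1 sample, so no test between the groups was run. Dixon's ratio serves only to mark single cells that stand apart within a group. Depth was 71682 to 216451 counts per cell, and intervals are 95% Clopper-Pearson for shares and 95% Poisson for sums. Alternatives covered the scale, filter, summary, depth, X class and each of the 4 cells. Values were computed in Python 3.11.15 with pandas 2.3.3, numpy 2.4.6 and scipy 1.17.1 and drawn with matplotlib 3.10.9, and the fold script was checked on simulated data. The allelic counts alone were analysed here.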

Additional observations from a re-analysis of the deposited data

Results flagged for a closer look

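Dixon's ratio was computed over the 4 cells, and over the 7 X-Mus O-Cast cells of the 43 for chromosome 1 levels, for 101 values in all. It was past its limit (0.829 for 4 cells) in 10. By chance about 1 in 20 would be. The group of 43 was too large for this test.

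Of whole chromosomes, C01 stood apart on chromosome 8, at 1.46 times the median level of the 43 against 1.02 for the next of the 4, and B04 on chromosome 12, with a Mus share of 7.18% against 35.9% for the next. B01 had the highest Mus share on chromosome 4, 43.6% against 38.97%, and on chromosome 19, 49.9% against 45.6%. C01 had the lowest level on chromosome 17, 0.925 against 1.05.

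Of single genes, C01 held 244 scaled Cast counts of Lefty1 against 17.7 in the next of the 4 cells. G04 held 25.6 Cast counts of Srp9 against 1.60, 44.2 of Gsta3 against 0 and 165 of Tfcp2l1 against 18.4. B04 held 23.9 counts of Krt42 against 0. The causes of these were not tested.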

How the results depend on the processing

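No paired analysis was possible because the labels give 1 group of single cells. The 3 chromosome 1 level ratios and 3 median gene folds moved by less than the spread between cells under every alternative run, and none changed direction except the Mus ratio and Mus median, which lie near 1 and 0. Without each of the 4 cells in turn they ranged from 1.98 to 1.99 (Cast ratio), 0.970 to 1.02 (Mus ratio), 1.49 to 1.504 (total ratio), 0.83 to 1.09 (Cast median), -0.09 to 0.04 (Mus median) and 0.50 to 0.62 (total median). The median Mus share of the 4 cells was 47.2%, and 45.04% as a mean over genes, with the same 4 cells above 40% either way. Counts of genes moved more. The 152 chromosome 1 genes following in Cast became 299 with a mean of at least 1 count, 57 with 20, 83 with cells thinned to 71682 counts and 99 with a mean of 5 in each group (136 to 149 without single cells). Their share stayed between 63.5% and 85.1% under all alternatives. The 342 and 511 genes of other autosomes became 1537 and 1135, 46 and 67, 121 and 197, and 141 and 234 under the same settings, 764 and 1061 among X-Mus O-Cast cells alone, and 368 to 488 and 514 to 693 without single cells. The split of these counts thus turned toward genes higher in the 43 at a mean of 1. Weighting to X classes, the filter in each group and leaving out chromosomes 8 and 12 were chosen after seeing the data. Of 44 folds of named genes past the limit (0.5 for Cast, 1 for the total), 2 changed sign, that of Atic to -0.079 within X-Mus O-Cast cells and that of Nrp2 to 0.068 without B01 (down to -1.32 without B04). The naming rule limits what this count can show. Its genes on the other autosomes were picked for staying past 1 without each of the 4 cells, so those alternatives could not turn their sign. The highest Cast folds were picked for size. List members on the other autosomes are not among the 44, and 6 of them turned sign without 1 cell. Of the 8 Cast folds short of the limit, those of Aim2, Apoa2, Dusp12, Ndufs1, Smyd2 and Usf1 changed sign under at least 1 alternative. The causes were not tested. Depth limits single genes, and Zdbf2 and Gpr1 could not be described.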
